A study of Mus musculus with 6 samples.

Results

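The genes described here are 10 genes of acetylcholine handling and motor neuron identity, chosen by symbol from a list of names. They are Chat, Slc18a3, Slc5a7, Ache, Isl1, Isl2, Mnx1, Prph, Chodl and Ret, and all 10 were found among the 43432 Ensembl gene identifiers of the count tables. RNA came from the spinal cord of wildtype C57BL/6 mice. In the SCI group (n = 3 mice) the cord was struck on 1 side at cervical level 5 with the Infinite Horizon impactor at 50 kdyn and collected 4 h later. In the sham group (n = 3 mice) the bone over the cord was removed at the same level and no blow was given. The sources used here give neither the age of the mice nor the collection time of the sham mice. The contusion was unilateral and the labels do not say which side or length of cord was taken, so how much of each sample was injured tissue is not given.

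Motor neurons of the ventral horn are the cholinergic output cells of the cord. Choline acetyltransferase, the product of Chat, makes acetylcholine from choline and acetyl-CoA, the vesicular transporter encoded by Slc18a3 loads it into synaptic vesicles, acetylcholinesterase (Ache) splits it after release, and the high-affinity transporter encoded by Slc5a7 takes the choline back into the terminal. Isl1, Isl2 and Mnx1 encode homeodomain transcription factors that specify motor neurons in the embryo. Chodl encodes chondrolectin, a membrane protein enriched in fast motor neurons, Prph encodes peripherin, an intermediate filament of neurons with peripheral axons, and Ret encodes the tyrosine kinase receptor for ligands of the GDNF family. Several of these genes are not particular to motor neurons. Prph, Isl1, Isl2 and Ret are also made by sensory neurons of dorsal root ganglia, and Ache is also made by erythroid cells and muscle.

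The Lexogen QuantSeq Forward kit was used, whose reads lie near the 3′ end of polyadenylated RNA, so a count does not scale with transcript length and levels of different genes are compared below without a length correction. The SCI libraries held 5364263 to 8229961 counts and the sham libraries 3407176 to 11543633. Levels are CPM, counts scaled to a common library size with TMM factors, in which 1 count was worth 0.121 to 0.198 CPM in SCI libraries and 0.0963 to 0.271 CPM in sham libraries. Genes of a hepatocyte list, which the labelled tissue should not express at such a level, took 8.23% to 8.59% of counts in SCI libraries. They took 8.65%, 12.1% and 6.55% in sham libraries 1, 2 and 3. The share was thus highest in sham 2 and lowest in sham 3, the library with the fewest counts. Results are given without single libraries where it matters. General neuron markers were abundant in every library, with summed levels of 6292 to 6612 CPM in SCI and 5459 to 7999 CPM in sham, the lowest in sham 2.

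Chat and Slc18a3 share a single locus. Chat spans chromosome 14, 32408203 to 32465989, on the minus strand (GRCm38, GENCODE M21; ENSMUSG00000021919), and Slc18a3 (ENSMUSG00000100241) lies at 32462438 to 32464850 on the same strand, inside an intron of Chat, starting 1139 bases downstream of the outermost Chat start. The exons of the genes share 0 bases. Unspliced Chat RNA would contain the Slc18a3 sequence, and its part in the Slc18a3 counts was not tested. The choline transporter gene Slc5a7 lies at chromosome 17, 54273590 to 54299034 (ENSMUSG00000023945), and Chodl at chromosome 16, 78930948 to 78951733 (ENSMUSG00000022860). Isl1 lies at chromosome 13, 116298281 to 116309689, Isl2 at chromosome 9, 55538672 to 55546180, and Mnx1 at chromosome 5, 29473034 to 29478470. Prph lies at chromosome 15, 99055174 to 99058978, and Ret at chromosome 6, 118151745 to 118197718.

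**Figure D1:**
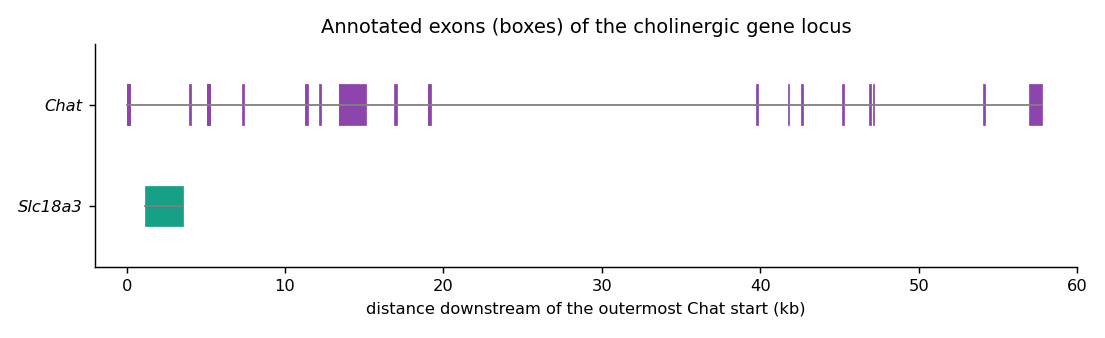
Exons of Chat and Slc18a3 along the cholinergic gene locus, plotted as distance in kb downstream of the outermost annotated Chat start, with boxes for exons of all annotated transcripts and a line for each gene. The single exon of Slc18a3 sits between exons of Chat and overlaps none of them.

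The sequences just upstream of 4 genes are shown because Slc5a7 and Chodl were the members whose SCI and sham levels did not overlap, and because Chat and Slc18a3 have separate starts within 1 locus. They come from the RefSeq promoter table (GRCm38.p6), which held 9 of the 10 members, and were kept only upstream of every annotated start of the gene. The windows are chr17:54299035-54299284 (minus strand) for Slc5a7, chr16:78930698-78930947 (plus strand) for Chodl, chr14:32465990-32466159 (minus strand) for Chat and chr14:32464851-32465100 (minus strand) for Slc18a3. All are written 5′ to 3′ along the gene's strand, with motif matches in capitals.
Slc5a7: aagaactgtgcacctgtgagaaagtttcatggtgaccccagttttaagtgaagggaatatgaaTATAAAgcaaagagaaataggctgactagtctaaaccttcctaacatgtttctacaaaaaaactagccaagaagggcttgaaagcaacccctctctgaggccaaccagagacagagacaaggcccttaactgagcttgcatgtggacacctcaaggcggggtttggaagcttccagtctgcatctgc
Chodl: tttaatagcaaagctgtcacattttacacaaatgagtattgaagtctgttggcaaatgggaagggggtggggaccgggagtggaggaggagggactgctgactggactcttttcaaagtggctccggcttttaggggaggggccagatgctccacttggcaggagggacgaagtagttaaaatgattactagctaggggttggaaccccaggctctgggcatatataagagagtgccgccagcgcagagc
Chat: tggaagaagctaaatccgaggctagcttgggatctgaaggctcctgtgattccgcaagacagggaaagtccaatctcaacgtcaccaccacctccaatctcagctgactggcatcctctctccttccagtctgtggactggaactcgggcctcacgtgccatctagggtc
Slc18a3: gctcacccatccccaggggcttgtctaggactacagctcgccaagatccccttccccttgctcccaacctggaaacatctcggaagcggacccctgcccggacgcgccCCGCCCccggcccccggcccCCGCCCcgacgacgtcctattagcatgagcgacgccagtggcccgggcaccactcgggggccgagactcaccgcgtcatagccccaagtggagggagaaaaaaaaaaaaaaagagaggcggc

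Each window was searched on both strands for the homeodomain core TAATTA, the AP-1 motif TGANTCA, the cAMP response element TGACGTCA, the GC box GGGCGG and the TATA box TATAAA. Slc5a7 held 1 TATAAA, which starts 187 bases before the gene start, against 12.4% of 32851 promoter windows of 250 bases that hold this motif. Slc18a3 held GGGCGG at 2 places on the opposite strand, starting 142 and 122 bases before the gene start, against 32.7% of such windows. The Chodl and Chat windows held none of the 5 motifs exactly as written. Variants were not searched for, among them the tatataag near the end of the Chodl window. Of windows of 250 bases, 4.84% held the homeodomain core, 6.75% the AP-1 motif and 1.55% the cAMP response element. Of windows of 170 bases, the length of the Chat window, 3.66% held the homeodomain core, 4.68% the AP-1 motif, 0.493% the cAMP response element, 19.5% the GC box and 8.04% the TATA box. No match overlapped another.

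All 10 genes had at least 3 counts in every library and all 10 passed the filter on low counts. None was called between SCI and sham at an adjusted p under 0.05 (edgeR quasi-likelihood test over 13560 genes), where 0.929% of all genes tested were called in either direction, 0.885% as higher and 0.0442% as lower in SCI. DESeq2 and limma voom also called 0 of the 10. Slc5a7 alone, 1 of the 10, had an unadjusted edgeR p under 0.05 and was lower in SCI, against 7.38% of all genes in either direction and 3.11% lower. Log2 fold changes were negative in 8 of the 10 genes, against 50.3% of all genes, and their median was -0.27, against -0.00246 over all genes. Groups did not overlap in 2 of the 10 genes, Slc5a7 and Chodl, both with every SCI library below every sham library. Over all genes, 13.7% did not overlap in either direction, 5.94% with SCI below and 7.73% with SCI above sham. In RNA of whole tissue, fewer motor neurons and less of a transcript per motor neuron cannot be told apart.

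**Figure D2:**
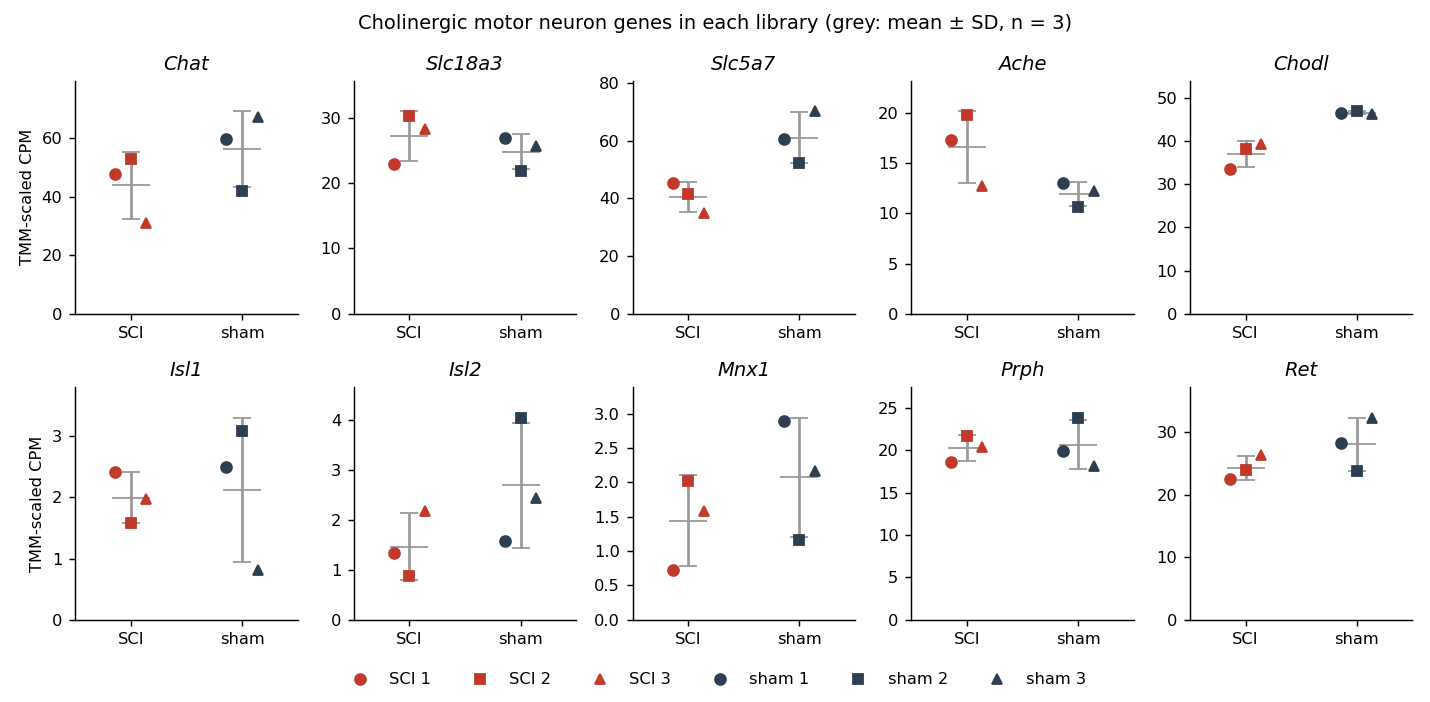
TMM-scaled CPM of the 10 genes in each SCI and sham library, with a panel and a linear axis from 0 for each gene, grey bars for the mean ± SD (n = 3) and a marker for each library. Slc5a7 and Chodl are the panels in which all SCI points lie below all sham points, while in the Ache panel 2 SCI points lie above the sham points.

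Slc5a7, the choline transporter, had the smallest p of the 10. It was at 45.2, 41.6 and 34.9 CPM in SCI libraries 1 to 3, against 60.8, 52.3 and 70.2 CPM in sham libraries 1 to 3. The highest SCI library lay below the lowest sham library, which was sham 2. Slc5a7 averaged 40.6 ± 5.24 CPM in SCI and 61.1 ± 8.97 CPM in sham (SD, n = 3 each). The log2 fold change was -0.58 ± 0.18 (SE), a fold of 0.668 with an unadjusted 95% interval of 0.509 to 0.878, and edgeR's adjusted p was 0.312. The estimate was negative under all 15 alternative fits, between -0.69 and -0.47. The adjusted p under those edgeR, limma and DESeq2 alternatives lay between 0.0236 and 0.739. It passed 0.05 when the hepatocyte level (-0.57 ± 0.14, adjusted p = 0.0304) or the general neuron level (-0.59 ± 0.14, adjusted p = 0.0236) entered the edgeR fit as a covariate. In those fits 29 and 28 genes were called lower over all genes, against 6 without a covariate. Without sham 2 the estimate was -0.69 ± 0.18 (edgeR adjusted p = 0.0864). It was weakest without sham 3, at -0.47 ± 0.19, and without SCI 3, at -0.50 ± 0.20 (edgeR adjusted p = 0.395 and 0.739). Set against the neurons of the same library, Slc5a7 had 68.7, 62.9 and 55.5 counts per 10000 counts of the general neuron list in SCI, against 84.7, 95.8 and 87.8 in sham. The groups did not overlap on this scale either, on which 3.17% of all genes tested had every SCI library below every sham library.

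Chat, the synthetic enzyme, was at 47.9, 53.0 and 31.1 CPM in SCI libraries 1 to 3, against 59.6, 42.1 and 67.2 CPM in sham libraries 1 to 3. The lowest value was SCI 3 and the groups overlapped, since sham 2 lay below SCI 1 and SCI 2. Chat averaged 44.0 ± 11.4 CPM in SCI and 56.3 ± 12.9 CPM in sham (SD, n = 3 each). Its log2 fold change was -0.34 ± 0.23 and missed the threshold (edgeR adjusted p = 0.833). It varied with single libraries, at -0.16 ± 0.22 without SCI 3, -0.20 ± 0.22 without sham 3 and -0.53 ± 0.20 without sham 2 (edgeR adjusted p = 0.993, 0.849 and 0.433). The unadjusted 95% interval of the fold, 0.565 to 1.10, leaves room for a decrease larger than that of Slc5a7 and for none.

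Slc18a3, the vesicular transporter from the same locus, was at 23.0, 30.3 and 28.3 CPM in SCI libraries, against 26.9, 21.9 and 25.8 CPM in sham libraries. The groups overlapped, with the highest values in SCI 2 and SCI 3. The log2 fold change was 0.13 ± 0.20, a fold of 1.10 with an unadjusted 95% interval of 0.820 to 1.47 (edgeR adjusted p = 0.948), and it was positive under all 15 alternatives, between 0.03 (without sham 2) and 0.24 (without SCI 1). Within a library, the ratio of the neighbours needs no scaling. Slc18a3 gave 32.4% of the summed Slc18a3 and Chat counts in SCI 1 (exact 95% binomial interval 28.6% to 36.4%), 36.4% in SCI 2 (32.5% to 40.5%) and 47.7% in SCI 3 (41.9% to 53.5%). In sham libraries 1 to 3 it gave 31.1%, 34.2% and 27.7%, with intervals that together ran from 23.0% to 37.9%. SCI 3 stood above all sham intervals, and SCI 1 and SCI 2 did not. The groups overlapped, at 38.8 ± 7.91% in SCI and 31.0 ± 3.25% in sham (SD, n = 3 each).

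Ache, which ends the acetylcholine signal, had the highest fold change of the 10. It was at 17.3, 19.8 and 12.7 CPM in SCI libraries 1 to 3, against 13.0, 10.7 and 12.2 CPM in sham libraries 1 to 3. SCI 1 and SCI 2 lay above all sham libraries and SCI 3 within their range. Ache averaged 16.6 ± 3.60 CPM in SCI and 11.96 ± 1.17 CPM in sham (SD, n = 3 each), which is 0.48 ± 0.23 on the log2 scale and missed the threshold (edgeR adjusted p = 0.684). The fold of 1.40 had an unadjusted 95% interval of 0.995 to 1.97, and the estimate was positive under all 15 alternatives, between 0.34 and 0.63.

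Set against Chat or against the general neuron list, Ache values did not overlap between the groups. It gave 26.5%, 27.2% and 29.0% of the summed Ache and Chat counts in SCI libraries 1 to 3, against 17.9%, 20.3% and 15.4% in sham libraries 1 to 3. The lowest SCI value lay above the highest sham value, and the means were 27.6 ± 1.26% in SCI and 17.8 ± 2.45% in sham (SD, n = 3 each). The interval of SCI 3, 23.1% to 35.4%, still overlapped that of sham 2, 17.0% to 23.9%. In SCI 3 Ache itself (12.7 CPM) lay within the sham range, and Chat (31.1 CPM) was the lowest of all libraries. Per 10000 general neuron counts, Ache had 26.3, 29.9 and 20.2 counts in SCI, against 18.1, 19.6 and 15.3 in sham. On that scale Ache and Slc5a7 were the 2 of the 10 genes without overlap, where 12.3% of all genes did not overlap in either direction and 9.11% had SCI above sham. Ache alone had SCI above sham there, a share of the 10 genes near that of all genes. For the ratio to Chat no share over all genes was computed. These ratios were chosen after the values were seen and are given without a test.

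**Figure D3:**
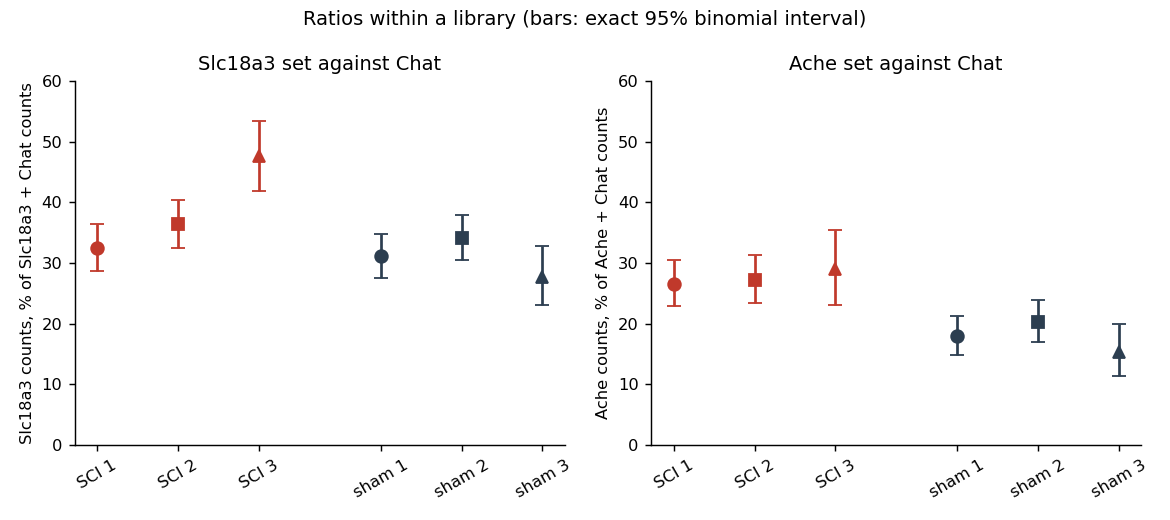
Slc18a3 counts as a percentage of Slc18a3 plus Chat counts (left) and Ache counts as a percentage of Ache plus Chat counts (right) in each SCI and sham library, with exact 95% binomial intervals that cover counting error only. On the left SCI 3 stands alone at 47.7%, and on the right all SCI libraries (26.5% to 29.0%) lie above all sham libraries (15.4% to 20.3%).

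Other sources of Ache were measured beside it. Summed erythroid markers were at 3036, 1628 and 4318 CPM in SCI libraries 1 to 3, against 881, 804 and 651 CPM in sham libraries 1 to 3, so blood transcripts were also higher in SCI. Of the erythroid markers, Epb42 was at 0 in all libraries. Skeletal muscle actin Acta1 averaged 2.94 ± 2.34 CPM in SCI and 2.72 ± 1.88 CPM in sham. The 15 skeletal muscle markers summed to 72.6 to 101 CPM in SCI libraries and 60.4 to 110 CPM in sham libraries, most of it from Pvalb, which interneurons also make, and none of the 15 was at 0 in all libraries. The part of blood and of muscle in the Ache values was not tested. A long noncoding RNA annotated on the opposite strand, Gm42456, overlaps 98 exon bases of Ache (chromosome 5, 137287519 to 137294466, ENSMUSG00000023328), and no source used here gives the strand setting of the counting.

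Chodl, the marker of fast motor neurons, was at 33.5, 38.3 and 39.3 CPM in SCI libraries 1 to 3, against 46.6, 46.9 and 46.4 CPM in sham libraries 1 to 3. All SCI libraries lay below all sham libraries, and the sham libraries spread by a coefficient of variation of 0.569%, against 8.33% in SCI. Chodl averaged 37.0 ± 3.08 CPM in SCI and 46.6 ± 0.265 CPM in sham (SD, n = 3 each). Sham libraries 1 to 3 held 355, 487 and 171 Chodl counts, for which counting error alone is larger than the sham spread. The small sham SD is therefore not a measure of precision. The log2 fold change was -0.34 ± 0.17 (edgeR adjusted p = 0.717), and it stayed between -0.39 and -0.27 under the 15 alternatives. The separation depended on scaling. Per 10000 general neuron counts Chodl had 50.9, 57.9 and 62.4 counts in SCI and 64.9, 85.9 and 58.0 in sham, and the groups overlapped.

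Prph, the peripheral-type neurofilament, was at 18.6, 21.7 and 20.4 CPM in SCI libraries, against 20.0, 23.9 and 18.2 CPM in sham libraries. The groups overlapped almost fully, at 20.2 ± 1.53 CPM in SCI and 20.7 ± 2.92 CPM in sham (SD, n = 3 each). The log2 fold change was -0.04 ± 0.20 (edgeR adjusted p = 0.984), and the unadjusted 95% interval of the fold, 0.721 to 1.31, bounds a change in either direction. Prph was highest in sham 2 among the sham libraries. Summed markers of dorsal root ganglion neurons, which also make Prph, were highest there too, at 5.12, 16.3 and 3.25 CPM in sham libraries 1 to 3 and 8.10, 19.9 and 16.1 CPM in SCI libraries 1 to 3. The sodium channel of nociceptors Scn10a had 17 counts over the SCI libraries and 1 over the sham libraries, and the ATP receptor subunit P2rx3 had 2 and 0. The part of ganglion tissue in the values of Prph, Isl1, Isl2 and Ret was not tested.

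The transcription factors were near the limit of these libraries. Isl1 had 20, 11 and 10 counts in SCI libraries 1 to 3 and 19, 32 and 3 counts in sham libraries 1 to 3. Isl2 had 11, 6 and 11 counts in SCI and 12, 42 and 9 in sham, so 1 library, sham 2, held most of the sham counts. Mnx1 had 6, 14 and 8 counts in SCI and 22, 12 and 8 in sham. The groups of each overlapped in CPM. Their log2 fold changes were -0.19 ± 0.48 for Isl1, -0.95 ± 0.52 for Isl2 and -0.51 ± 0.55 for Mnx1, with edgeR adjusted p-values of 0.975, 0.745 and 0.922. All 3 estimates moved with single libraries. That of Isl1 ran from -0.48 to 0.14 ± 0.58, the upper value without sham 2. That of Isl2, the largest of the 10 in size, ran from -1.31 without SCI 3 to -0.45 ± 0.62 without sham 2. That of Mnx1 ran from -0.87 without SCI 2 or sham 2 to -0.15 without SCI 1 and -0.14 without sham 1. The unadjusted 95% intervals of the fold were 0.427 to 1.79 for Isl1, 0.241 to 1.11 for Isl2 and 0.312 to 1.58 for Mnx1, so a change in either direction was not detectable at this depth unless it was large.

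Ret was at 22.6, 24.0 and 26.4 CPM in SCI libraries, against 28.4, 23.8 and 32.3 CPM in sham libraries. The groups overlapped through sham 2, and the log2 fold change was -0.20 ± 0.19 (edgeR adjusted p = 0.912), and without single libraries it ran from -0.32 (without sham 2) to -0.10 (without sham 3). Of 13 genes of the GDNF family ligands and their co-receptors, 8 were tested and none was called by edgeR, DESeq2 or limma voom, with 0 at an unadjusted edgeR p under 0.05. Their median log2 fold change was 0.12, and without single libraries it ran from -0.07 (without SCI 3) to 0.23 (without sham 3), at 0.0044 without sham 2. Gfra1, the co-receptor of GDNF and chosen after its values were seen, averaged 49.9 ± 5.27 CPM in SCI and 60.1 ± 18.2 CPM in sham. Gfra2, the co-receptor of neurturin, averaged 7.92 ± 1.995 CPM in SCI and 5.73 ± 1.85 CPM in sham (edgeR adjusted p = 0.799). The neurturin gene Nrtn averaged 2.52 ± 0.308 CPM in SCI and 1.67 ± 0.243 CPM in sham (edgeR adjusted p = 0.871). Gdnf itself did not pass the filter on low counts, and it was named after its values were seen. It had 12, 9 and 8 counts in SCI libraries 1 to 3 and 1, 0 and 1 counts in sham libraries 1 to 3, which set against the total counts is 16.3 times as much (95% counting interval 4.12 to 141). Without the filter, edgeR gave Gdnf an adjusted p of 0.0602.

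**Figure D4:**
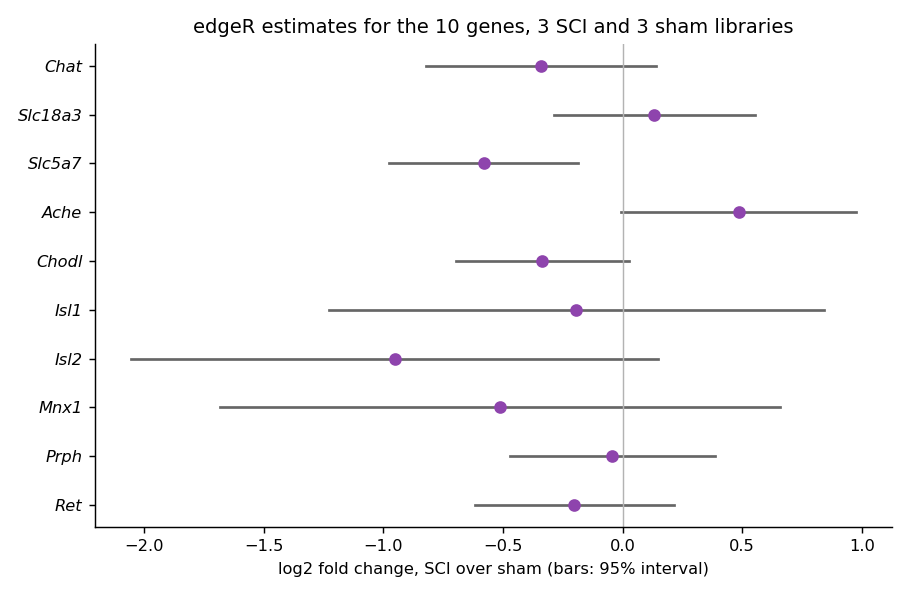
Log2 fold changes of SCI over sham for the 10 genes, as points with unadjusted 95% intervals from the edgeR fit of 3 SCI and 3 sham libraries. The intervals of Isl1, Isl2 and Mnx1 are the widest, that of Slc5a7 (point at -0.58) lies wholly below 0, and Ache (0.48) and Slc18a3 (0.13) are the points above 0.

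The order of levels was much alike in the groups. In SCI the order was Chat (44.0 CPM), Slc5a7 (40.6), Chodl (37.0), Slc18a3 (27.2), Ret (24.3), Prph (20.2), Ache (16.6), Isl1 (1.996), Isl2 (1.46) and Mnx1 (1.44). In sham it was Slc5a7 (61.1 CPM), Chat (56.3), Chodl (46.6), Ret (28.1), Slc18a3 (24.8), Prph (20.7), Ache (11.96), Isl2 (2.69), Isl1 (2.13) and Mnx1 (2.07). In both groups Chat differed from Slc5a7 and from Chodl by less than the SD of Chat, and the 3 transcription factors differed among themselves by less than the largest of their SDs. Slc18a3, Ret and Prph lay between at 20.2 to 28.1 CPM in both groups.

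Summed over the 10 genes, the level was 213, 233 and 199 CPM in SCI libraries 1 to 3, against 262, 230 and 278 CPM in sham libraries 1 to 3. The ranges met at SCI 2 and sham 2, and the means were 215 ± 17.2 CPM in SCI and 257 ± 24.4 CPM in sham (SD, n = 3 each). The 10 genes gave 3.23, 3.52 and 3.16 counts per 100 counts of the general neuron list in SCI, against 3.65, 4.21 and 3.47 in sham. As shares of the sum, chosen after their values were seen and given without a test, Slc5a7 gave 18.9 ± 2.07% of the summed counts in SCI and 23.7 ± 1.36% in sham, while Ache gave 7.67 ± 1.13% in SCI and 4.67 ± 0.282% in sham. Slc18a3 gave 12.7 ± 1.75% in SCI and 9.69 ± 0.516% in sham. Shares of 1 sum depend on each other, so a lower share of 1 gene raises the rest.

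Other genes used as motor neuron markers were split in direction. Of 21 genes, 19 were tested and none was called by edgeR, DESeq2 or limma voom, with 3 at an unadjusted edgeR p under 0.05, 10 positive and 9 negative, and a median log2 fold change of 0.03. Without single libraries the median ran from -0.21 (without sham 2) to 0.13 (without sham 3). Nefh, the heavy neurofilament of large axons, averaged 848 ± 80.4 CPM in SCI and 957 ± 168 CPM in sham. Prkcd, a protein kinase C that is also found in other cells, averaged 8.80 ± 1.27 CPM in SCI and 4.47 ± 0.797 CPM in sham (log2 fold change 0.98 ± 0.29, edgeR adjusted p = 0.236). Tns1, the focal adhesion protein tensin, averaged 79.1 ± 7.32 CPM in SCI and 53.1 ± 3.78 CPM in sham (edgeR adjusted p = 0.249). Calca, the CGRP gene of motor and sensory neurons and the third of the 3, was named after its values were seen and averaged 25.5 ± 4.88 CPM in SCI and 36.8 ± 12.8 CPM in sham (edgeR adjusted p = 0.617).

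On the receiving side of the signal, 11 of 30 genes for acetylcholine receptors and accessory proteins were tested. None was called by edgeR, DESeq2 or limma voom, and 0 had an unadjusted edgeR p under 0.05. Their median log2 fold change was 0.12, with 9 positive and 2 negative, and 6 of the 30 had no count in any library. Without single libraries the median ran from -0.0017 (without SCI 2) to 0.21 (without SCI 3), and was 0.05 without sham 2 and 0.06 without SCI 1. Lynx1, a membrane protein that damps nicotinic receptors, averaged 89.0 ± 10.5 CPM in SCI and 79.3 ± 15.9 CPM in sham. The nicotinic subunit Chrna4 averaged 23.9 ± 5.497 CPM in SCI and 19.1 ± 6.00 CPM in sham (edgeR adjusted p = 0.868). Prima1, which anchors acetylcholinesterase in neuronal membranes, averaged 3.83 ± 0.971 CPM in SCI and 2.96 ± 1.24 CPM in sham (edgeR adjusted p = 0.897). Bche, the related butyrylcholinesterase, was named after its values were seen and averaged 49.7 ± 4.78 CPM in SCI and 53.3 ± 21.2 CPM in sham.

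**Figure D5:**
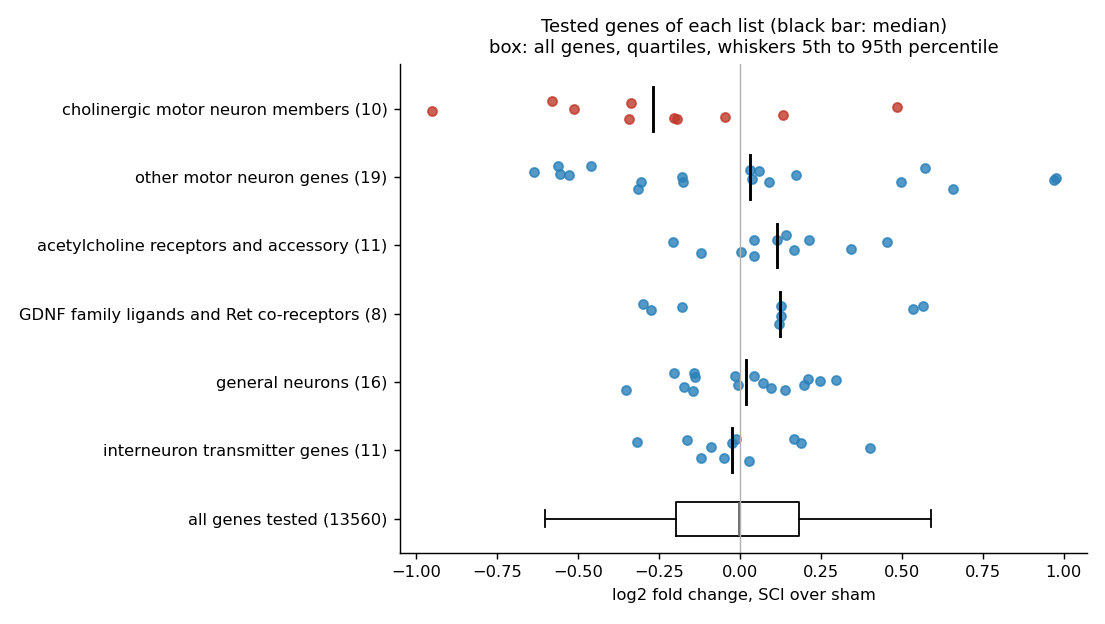
Log2 fold changes of SCI over sham for the tested genes of 6 lists, with a point for each gene, a black bar for each list's median and a box for all 13560 genes tested (quartiles, whiskers from the 5th to the 95th percentile). The median of the 10 cholinergic motor neuron genes lies at -0.27, and those of the other lists lie between -0.02 and 0.12.

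Markers of neurons in general were also split in direction. Of 16 general neuron markers and 11 tested interneuron genes, none was called by edgeR, DESeq2 or limma voom and 0 had an unadjusted edgeR p under 0.05, with medians of 0.02 and -0.02. Without sham 2 the median of the general neuron list was -0.18 and that of the 10 cholinergic genes -0.33, and without sham 3 they were 0.17 and -0.27. Elavl4, an RNA-binding protein of neurons, averaged 118 ± 13.8 CPM in SCI and 151 ± 21.6 CPM in sham (edgeR adjusted p = 0.742), and the excitatory transporter Slc17a6 averaged 102 ± 4.17 CPM in SCI and 115 ± 36.6 CPM in sham. Of 17 tested immediate early and injury genes that damaged motor neurons are known to use, 5 were higher in SCI by edgeR, 6 by DESeq2 and 4 by limma voom. The edgeR count was 3 without sham 1 and 4 to 7 without any other single library. Over all genes, 0.885% were called higher in SCI by edgeR. The list was chosen with earlier results of these data known, so setting its count beside this share is not a test. Atf3, a transcription factor of injured neurons, averaged 17.2 ± 0.499 CPM in SCI and 1.79 ± 0.841 CPM in sham (log2 fold change 3.23 ± 0.32, edgeR adjusted p = 6.37e-05). In whole tissue the cells that made Atf3 cannot be told apart.

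Lists for other cells were read for what the samples held. Called higher by edgeR were 5 of 7 tested erythroid genes, 1 of 10 Schwann cell genes (Egr2) and 1 of 9 astrocyte genes (Sox9), and 1 of 9 microglia genes was lower (P2ry12). The shares of all genes tested that edgeR called were 0.885% higher and 0.0442% lower in SCI. Without single libraries 2 to 5 erythroid genes were called: 2 without sham 2, 3 without SCI 1, SCI 3, sham 1 or sham 3, and 5 without SCI 2. Egr2 was not called without SCI 1 or sham 1, Sox9 without SCI 1, SCI 2 or sham 1, and P2ry12 without SCI 1, SCI 3 or sham 1. None was called by edgeR, DESeq2 or limma voom among 9 oligodendrocyte, 8 endothelial, 15 hepatocyte, 4 skeletal muscle and 4 sensory neuron genes tested. At an unadjusted edgeR p under 0.05 were 1 oligodendrocyte gene, 1 endothelial gene and 0 of the hepatocyte, muscle and sensory neuron genes. Such a p was found for 7.38% of all genes tested, in either direction.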

How the data were processed

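Spinal cord RNA of 3 SCI and 3 sham mice was analysed from 1 table per mouse. The authors deposited whole-number read counts per Ensembl gene, not normalized. Per the labels' design text, single-end reads of 50 bases were aligned with STAR 2.7.2b to mm10 with the Ensembl 96 annotation, and DESeq2 1.24.0 is named in the submitters' processing notes. No source used here names the counting tool, its strand setting or its use of molecular identifiers, so intervals on counts cover counting error only.

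Symbols were matched to 42462 of 43432 identifiers. Genes passed edgeR's filterByExpr (13560 of 21524 with a count), were scaled by TMM and tested with edgeR's quasi-likelihood F test (edgeR 4.0.16, R 4.3.3, robust, prior count 0.125, no covariates), with Benjamini-Hochberg adjustment over all 13560 and a threshold of 0.05. Standard errors were derived from the log2 fold change and its F statistic. The biological coefficient of variation was 19.9%. The procedure was tested on simulated data. Alternatives were limma voom (3.58.1), DESeq2 (1.42.0), other scalings and filters, a replicate block, hepatocyte or general neuron levels as a covariate, and leaving out each library. Within a group, chi-square statistics between libraries were 6.97 to 38.0 times their degrees of freedom (genes with at least 20 summed counts), and none was treated as a duplicate. Each library was taken as 1 animal, since the design text gives 3 mice a group.

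The members and 15 lists (other motor neuron genes, acetylcholine receptors and accessory genes, GDNF family, general neurons, interneurons, sensory neurons, muscle, Schwann cells, oligodendrocytes, astrocytes, microglia, endothelium, erythroid cells, hepatocytes, injury genes) were chosen with earlier results of these data known. Drgx and Ahsp had no match. Named beside the members were each list's most abundant gene and its called genes with the smallest p (up to 3), or otherwise the 2 with the smallest p. Not every gene this rule names is reported.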

Additional observations from a re-analysis of the deposited data

How the results depend on the processing

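Of the 10 genes, 8 kept their sign under every alternative fit in which they were tested (15, or 14 for Isl2 and Mnx1, which did not pass the stricter filter). Isl1 and Prph did not. Without single libraries Isl1 ran from -0.48 to 0.14, with the upper value without sham 2, and Prph from -0.121 to 0.0682, at 0.0164 without SCI 1 and 0.0682 without sham 2. The number of the 10 called was 1, Slc5a7, with the hepatocyte level and with the general neuron level as a covariate, and 0 otherwise, including each fit without a single library. A covariate leaves fewer residual degrees of freedom. The SE of Slc5a7 was nonetheless smaller with either covariate, at 0.14, than without one, at 0.18. Why Slc5a7 passed there was not tested. The median log2 fold change of the 10 ran from -0.33 to -0.17 without single libraries. Their summed level, SCI over sham on the log2 scale, was -0.26, and ran from -0.33 to -0.20 without single libraries. Over all genes, 120 were called higher and 6 lower. With no filter these were 182 and 42, with the hepatocyte level 213 and 29, and with the general neuron level 207 and 28. DESeq2 called 11 lower. Without single libraries 62 to 132 were higher and 1 to 14 lower. The higher count was 62 without sham 1, and the lower count was 3, 3 and 2 without SCI 1, 2 and 3, and 1, 12 and 14 without sham 1, 2 and 3. With the replicate block, 81 were called higher and 1 lower, 0 of the 10 genes were called, and Slc5a7 had an edgeR adjusted p of 0.713. Same-numbered libraries did not deviate together (correlations of -0.0848, -0.0654 and -0.172), and no SCI library correlated best with the sham library of its own number, so the numbers were not taken as pairs. Depth limits Isl1, Isl2 and Mnx1 most, with 3 to 42 counts in a library.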
